A study of Arabidopsis thaliana with 28 samples.

Results

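The genes described here encode histone H3 in Arabidopsis thaliana, and are 8 of the 36632 loci in the count tables. They were chosen by locus identifier: 5 encode H3.1 (AT1G09200, AT3G27360, AT5G10390, AT5G10400 and AT5G65360) and 3 encode H3.3 (AT4G40030, AT4G40040 and AT5G10980). All 8 passed the filter on low counts in both tables. The series title concerns H3 acetylation and the loading of H2A.Z, a variant of histone H2A, into chromatin.

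RNA was sequenced from whole seedlings harvested 12 days after germination, in 28 libraries. Every seed lot was cold-treated at 4 °C over 4 days, and plants grew in long days at about 21 °C. Each soil group had 3 libraries: wild type Columbia-0 (Col-0), the single lines hda6-1, hda9-1 and h2a.z-5, and the combinations hda9-1 h2a.z-5 and hda6-1 h2a.z-5. The labels tie hda6-1 to SALK_201895C and hda9-1 to SALK_007123. They describe h2a.z-5 as a triple mutant with an extra adenosine in HTA8, which shifts its frame, and the insertions SALK_054814 and SALK_017235. Mock and TSA had 5 libraries each, were of the Columbia-0 genotype, and were taken as grown in MS medium with 1% sucrose, as the growth notes give for TSA treatments. TSA is trichostatin A, an inhibitor of histone deacetylases, whose dose and duration the labels do not give.

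Gene counts summed to 32795474 to 39633678 per genotype library and 30257874 to 40395659 per Mock or TSA library. Levels are CPM, the counts of a gene scaled to the TMM effective size of its library. In the libraries labelled hda6-1, HDA6 transcript stood at 128.6 ± 28.3 CPM (SD, n = 3) against 16.7 ± 3.41 in Col-0, so that this transcript was higher under the mutant label, while it was 16.9 ± 1.07 in hda6-1 h2a.z-5. HDA9 was 1.62 ± 0.111 CPM in hda9-1 and 13.9 ± 1.71 in Col-0, and HTA11, an H2A.Z gene, was 1.64 ± 0.388 in h2a.z-5 and 61.4 ± 9.06 in Col-0. The leaf markers RBCS1A, CA1 and LHCB2.1 summed to 34110 to 41790 CPM in Col-0 and 25410 to 49180 CPM in the single mutants. In the Mock and TSA libraries they summed to 4543 to 45230 CPM. The root markers CASP1, SHV2, EXPA7 and PYK10 summed to 35.9 to 98.4 CPM in Col-0 and 26.4 to 138.8 CPM in the single mutants. EXPA7 had no count in any soil group, wild type included. In Mock and TSA the root markers summed to 523 to 2008 CPM. These are bulk samples, in which fewer cells of a type and less RNA per cell cannot be told apart.

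Histone H3 forms the core of the nucleosome together with H4, H2A and H2B. H3.1 is the replicative form, which the chaperone CAF-1 places behind the replication fork, and its genes are transcribed mainly in S phase in dividing cells. H3.3 is placed outside S phase by HIRA and ATRX, is enriched over transcribed genes, and is made in dividing and non-dividing cells alike. The enzymes HDA6 and HDA9 remove acetyl groups from lysines of histone tails.

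On the TAIR10.1 assembly of RefSeq, all 8 genes lie on the minus strand. The H3.1 genes are at chr1:2971571-2972334, chr3:10129105-10129937, chr5:3268847-3269594, chr5:3270172-3270957 and chr5:26119859-26120581, in the order named above. The H3.3 genes are at chr4:18555532-18557106, chr4:18557149-18558945 and chr5:3472405-3473570. Neighbours are close: AT5G10390 and AT5G10400 are 577 bases apart, and AT4G40030 and AT4G40040 only 42. AT3G27360 shares 328 bases with the annotated span of AT3G27380 on the same strand, so its reads could be split or shared by the authors' counting, whose rules no source used here states. Each H3.1 gene has its coding sequence in 1 exon, while the H3.3 coding sequences span 3, 4 and 3 exons. All coding sequences are 411 bases long.

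The encoded proteins of the 2 classes differ at 4 codons, which are shown here. The transcripts also differ between classes at many other bases, as the identities given below show. Codons are counted from the codon after the start codon, and capitals mark codons 31 and 41 in a stretch from codon 29 to 43 (RefSeq, TAIR10.1, chromosome given by the locus identifier).
AT1G09200: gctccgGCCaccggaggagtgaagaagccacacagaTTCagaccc
AT3G27360: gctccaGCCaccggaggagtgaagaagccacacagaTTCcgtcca
AT5G10390: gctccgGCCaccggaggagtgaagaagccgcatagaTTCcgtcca
AT5G10400: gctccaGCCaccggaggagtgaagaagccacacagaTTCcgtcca
AT5G65360: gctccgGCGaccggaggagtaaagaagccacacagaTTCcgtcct
AT4G40030: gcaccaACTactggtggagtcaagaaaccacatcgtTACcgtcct
AT4G40040: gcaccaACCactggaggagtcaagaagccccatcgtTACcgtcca
AT5G10980: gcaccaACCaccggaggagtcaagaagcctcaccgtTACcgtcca
Codon 31 is GCC or GCG, for alanine, in H3.1 and ACT or ACC, for threonine, in H3.3. Codon 41 is TTC, for phenylalanine, in H3.1 and TAC, for tyrosine, in H3.3. In the stretch from codon 85 to 92 the capitals mark codons 87 and 90.
AT1G09200: cagagcAGTgccgtcGCCgctctt
AT3G27360: cagagtAGTgcagtcGCAgctctt
AT5G10390: cagagcAGTgctgttGCTgcttta
AT5G10400: cagagcAGTgccgtcGCAgctctt
AT5G65360: cagagcAGCgccgtcGCAgcactt
AT4G40030: cagagcCATgctgtcTTAgctctc
AT4G40040: cagagcCATgctgtgCTTgcactc
AT5G10980: cagagtCACgcggtgTTAgctctt
Codon 87 encodes serine in H3.1 and histidine in H3.3, and codon 90 encodes alanine in H3.1 and leucine in H3.3. Within each class the encoded proteins were identical. The bases were not: the 10 pairs of H3.1 coding sequences were 80.3 to 89.5% identical, the 3 pairs of H3.3 were 78.6 to 88.8% identical, and the 15 pairs across classes were 74.0 to 80.3% identical. An exact stretch of 50 exonic bases found elsewhere in the genome occurred only between AT3G27360 and AT5G10400 (10 stretches, 1.3% and 1.4% of those in each gene), and no stretch of 100 bases was shared. No source used here states the read length, so how reads from the shared stretches of AT3G27360 and AT5G10400 were counted is uncertain.

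Upstream of the annotated starts, the letters searched were the histone octamer CGCGGATC, the hexamer ACGTCA, and the E2F forms TTTCCCGC, TTTGGCGC, TTTCGCGC and TTTGCCGC, on both strands, from 250 bases before to 50 bases after the start. The octamer was in 3 of 5 H3.1 windows and 1 of 3 H3.3 windows, against 0.146% of 27443 protein-coding genes. The hexamer was in 2 of 5 and 1 of 3, against 9.19%, and an E2F form in 0 of 5 and 0 of 3, against 1.76%. No octamer overlapped a hexamer in the H3 windows. Among 8 H4 genes, 2 windows held the octamer, 1 the hexamer and 2 an E2F form. The 160 bases before the start of the 4 H3 genes with an octamer are shown, 5′ to 3′ along the gene, with the octamer in capitals.
AT1G09200: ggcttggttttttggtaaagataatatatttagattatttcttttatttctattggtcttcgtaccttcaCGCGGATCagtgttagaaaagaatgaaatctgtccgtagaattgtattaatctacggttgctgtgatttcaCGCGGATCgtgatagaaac
AT5G10400: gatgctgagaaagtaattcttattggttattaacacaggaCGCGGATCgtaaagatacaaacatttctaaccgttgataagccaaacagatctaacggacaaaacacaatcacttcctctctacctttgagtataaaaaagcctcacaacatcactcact
AT5G65360: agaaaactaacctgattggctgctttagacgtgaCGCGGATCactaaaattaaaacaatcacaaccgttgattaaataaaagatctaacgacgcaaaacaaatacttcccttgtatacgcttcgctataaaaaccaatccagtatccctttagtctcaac
AT4G40040: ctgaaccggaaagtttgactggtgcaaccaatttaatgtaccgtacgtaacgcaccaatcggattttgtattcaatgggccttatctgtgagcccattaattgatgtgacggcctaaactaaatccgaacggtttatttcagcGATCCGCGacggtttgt
These windows are chr1:2972335-2972494, chr5:3270958-3271117, chr5:26120582-26120741 and chr4:18558946-18559105. AT1G09200 held the octamer at -90 and at -19, AT5G10400 at -120 and AT5G65360 at -126, counted to the first base of the match, and AT4G40040 held it on the other strand at -17. The windows of AT3G27360 and AT5G10390 held none of these octamers. Beyond the 42 bases between the genes, the upstream window of AT4G40030 lies in the transcribed span of AT4G40040, and it was not printed.

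Per length, the H3.3 genes and AT5G65360 were among the most abundant transcripts of the family in Col-0, and AT3G27360 was by far the least. In CPM per kb of exon, Col-0 had 220.8 ± 30.7 (SD, n = 3) for AT5G10980, 216.6 ± 18.6 for AT4G40040, 215.9 ± 35.1 for AT4G40030 and 196 ± 5.40 for AT5G65360, with ranges that overlapped between neighbours in this order. AT1G09200 followed at 164 ± 24.8, below every AT5G65360 library. AT5G10400 at 78.1 ± 3.91 and AT5G10390 at 64.75 ± 12.1 overlapped each other, and AT3G27360 stood apart at 7.08 ± 2.96. AT3G27360 was the lowest gene, with no overlap with the next, in all 8 groups.

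The H3.1 share of the H3 transcript was lower in the Mock libraries than in the soil libraries. As a share of the 8 genes in CPM per kb, H3.1 made up 43.8 ± 1.73% (SD, n = 3) in Col-0 and between 42.3 and 46.5% in the means of the mutants. In Mock the share was 16.55 ± 2.22% (n = 5). Scaled to library totals, the H3.1 sum was 377.9 ± 19.7 CPM in Col-0 and 88.85 ± 16.03 CPM in Mock, a ratio of 4.25, whereas the H3.3 sum was 789.9 ± 19.1 and 806.9 ± 205, a ratio of 0.979. The ratio was 3.44 to 5.40 for each H3.1 gene, and 1.14, 0.714 and 1.78 for AT4G40030, AT4G40040 and AT5G10980. Both groups are wild type, but they come from tables fitted separately, so no test was made. Growth on soil or in medium, the root markers given above and the library set cannot be told apart here.

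**Figure D1:**
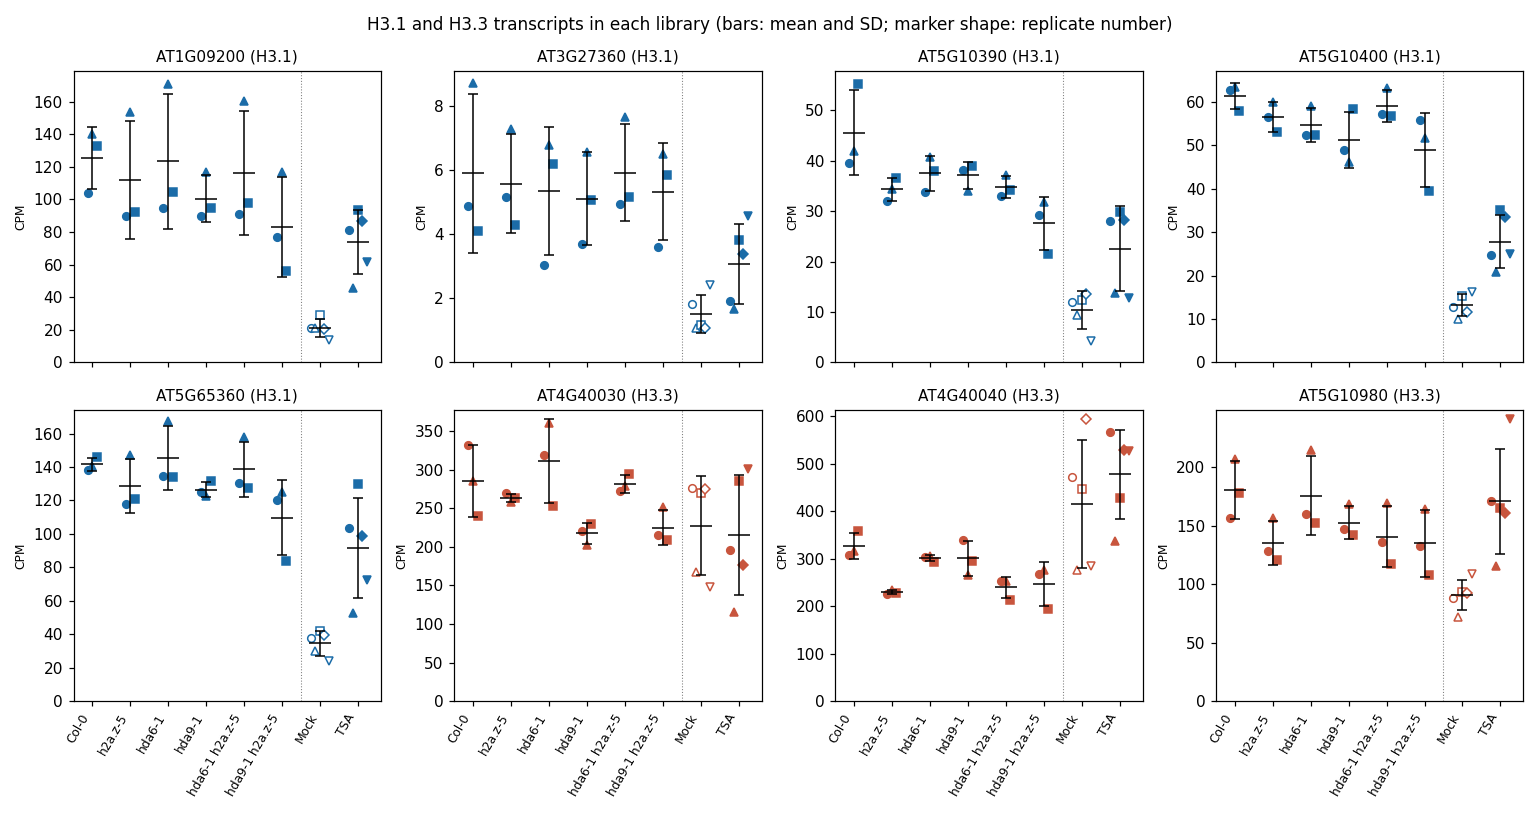
Each panel plots 1 gene, with CPM (linear, from 0) on the vertical axis and the 8 groups on the horizontal axis; points are libraries, marker shape is the replicate number, open points are Mock, and bars are the mean and SD. The dotted line parts the tables that were scaled separately. The 5 TSA libraries of AT1G09200 sit between 45.7 and 93.5 CPM, above the Mock libraries at 13.45 to 29.3 CPM.

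All 5 H3.1 genes and the H3.3 gene AT5G10980 rose under TSA, and the H3.3 genes AT4G40030 and AT4G40040 did not pass the test. Of the 8 genes, 6 were higher and 0 lower at an adjusted p under 0.05 by edgeR's quasi-likelihood test, against 18.5% of the 20201 genes tested that were higher. For 4 of them the TSA and Mock libraries did not overlap, as for 13.3% of genes. The median log2 fold change was 1.12 over the 5 H3.1 genes and 0.20 over the 3 H3.3 genes, and -0.07 over all genes tested. Of 100 genes simulated with a log2 change of 1 at the depths of these libraries, 26% were called. That simulation changed far fewer genes than the 7115 called here, and gave every gene the same spread. Fewer changed genes make the adjusted threshold stricter, so 26% is not the sensitivity of this comparison.

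The H3.1 gene AT1G09200 had 21.0, 21.0, 29.3, 20.3 and 13.45 CPM in Mock replicates 1 to 5, and 81.0, 45.7, 93.5, 86.5 and 61.9 CPM in TSA replicates 1 to 5. The lowest TSA library was above the highest Mock library. The fitted log2 fold change was 1.81 ± 0.25 (SE; edgeR adjusted p 0.000477).

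AT5G65360, the most abundant H3.1 gene per length in Mock, had 37.5, 30.2, 42.2, 39.6 and 24.0 CPM in Mock and 103.3, 52.5, 130.0, 98.7 and 72.2 CPM in TSA. The groups did not overlap, although TSA replicate 2 came close to Mock replicate 3. The fitted log2 fold change was 1.40 ± 0.26 (edgeR adjusted p 0.00226). AT5G10400 had 12.7, 10.1, 15.3, 11.6 and 16.1 CPM in Mock and 24.8, 20.9, 35.0, 33.5 and 25.1 CPM in TSA, again without overlap. Its fitted log2 fold change was 1.08 ± 0.20 (edgeR adjusted p 0.00234).

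AT5G10390 had 12.1, 9.43, 12.4, 13.6 and 4.19 CPM in Mock and 28.02, 13.9, 29.7, 28.3 and 12.8 CPM in TSA. TSA replicate 5 lay inside the Mock range, and replicate 5 was the lowest library of each group. The fitted log2 fold change was 1.12 ± 0.35 (edgeR adjusted p 0.0290), and the call was lost when Mock replicate 2 or TSA replicate 1, 3 or 4 was left out, with adjusted p up to 0.0709.

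AT3G27360, the least abundant member, had 1.83, 1.06, 1.17, 1.09 and 2.43 CPM in Mock and 1.93, 1.68, 3.81, 3.38 and 4.56 CPM in TSA. The groups overlapped, since Mock replicate 5 exceeded TSA replicates 1 and 2. Its fitted change of 1.02 ± 0.36 on the log2 scale passed narrowly (edgeR adjusted p 0.0477). The call was lost when Mock replicate 1, 2, 3 or 4 or TSA replicate 3, 4 or 5 was left out, with adjusted p up to 0.1084. It was also lost without the filter on low counts (edgeR adjusted p 0.0535).

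Among the H3.3 genes, AT5G10980 had 88.1, 71.9, 93.4, 92.3 and 108.4 CPM in Mock and 172, 115.4, 166, 161 and 241.1 CPM in TSA. The groups did not overlap, and replicate 5 was the highest library of each. The fitted log2 fold change was 0.91 ± 0.21 (edgeR adjusted p 0.00761).

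AT4G40040, the most abundant member per length in medium, had 472.2, 276.7, 447, 594.2 and 284.2 CPM in Mock and 567.3, 337.1, 427.6, 529.1 and 526.4 CPM in TSA. The ranges overlapped almost fully. The fitted log2 fold change was 0.20 ± 0.26 (edgeR adjusted p 0.577), and it was -0.08 when libraries were scaled to their totals alone.

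AT4G40030 had 276.4, 167.6, 269.7, 275.6 and 148.4 CPM in Mock and 195.7, 115.1, 285.4, 177.1 and 301.1 CPM in TSA. TSA replicates 3 and 5 lay above every Mock library, and TSA replicate 2 lay below all of them. The fitted log2 fold change was -0.08 ± 0.30 (edgeR adjusted p 0.850). For AT4G40030 and AT4G40040 a p above the threshold does not show that TSA left them as they were.

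Paired by replicate number, TSA was above Mock in 5 of 5 pairs for each H3.1 gene and for AT5G10980, in 3 of 5 pairs for AT4G40040 and in 2 of 5 for AT4G40030. The share of all genes above Mock in 5 of 5 pairs was not counted. Pair ratios ran from 2.18 to 4.6 for AT1G09200, from 1.74 to 3.08 for AT5G65360 and from 1.55 to 2.90 for AT5G10400. They ran from 1.47 to 3.05 for AT5G10390, from 1.61 to 2.22 for AT5G10980 and from 1.05 to 3.27 for AT3G27360. The lowest, pair 1 of AT3G27360, turned when scaled to library totals, with 2.05 CPM in Mock and 1.44 CPM in TSA. The 6 genes that passed also passed in the fit with the replicate block (22.7% of all genes higher), in DESeq2, and without replicate 5 in either group. Of all genes tested, 4201 of 20201 were higher by DESeq2 and 5481 of 20130 without replicate 5, against 3736 of 20201 in the main fit. In the authors' deposited table of this comparison the same 6 genes had adjusted p-values under 0.05, from 1.56e-09 for AT1G09200 to 0.0215 for AT3G27360. With library totals alone as the scaling, only 3 of the 6 passed (AT1G09200, AT5G10400 and AT5G65360), and the adjusted p was 0.170 for AT3G27360, 0.0655 for AT5G10390 and 0.0656 for AT5G10980. That scaling moved the median log2 fold change of all genes to -0.33 and the split of calls from 3736 higher and 3379 lower to 2473 higher and 4683 lower.

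**Figure D2:**
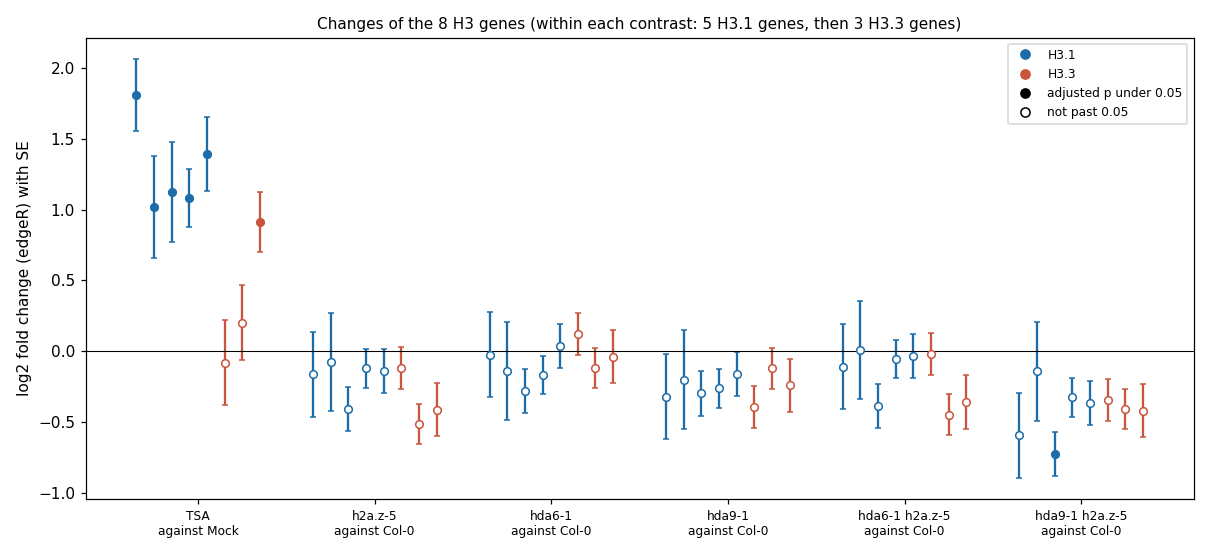
Log2 fold changes with SE (vertical axis) of the 8 genes in 6 contrasts (horizontal axis), H3.1 in blue and H3.3 in red; filled points have an edgeR adjusted p under 0.05. The 6 filled points under TSA lie between 0.91 and 1.81, and the 1 filled point among the mutants is AT5G10390 in hda9-1 h2a.z-5 at -0.73.

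Summed over the class, H3.1 transcript was 80.7 ± 15.3 CPM (SD, n = 5; range 60.2 to 100.4) in Mock and 218.5 ± 62.6 CPM (range 134.6 to 292.1) in TSA, without overlap. The H3.3 sum was 733.2 ± 195.6 CPM in Mock and 863.3 ± 183.6 CPM in TSA, with ranges that overlapped. The ratios of the means were 2.71 and 1.18. Scaled to library totals, the H3.3 sum was 806.9 CPM in Mock and 790.6 CPM in TSA, so its direction turned. The H3.1 share of the 8 genes per kb went from 14.05 to 19.6% in the Mock libraries to 21.3 to 35.95% in the TSA libraries. Within H3.1, AT1G09200 made up 25.8 ± 3.21% of the class in Mock and 33.9 ± 1.16% in TSA, where all 5 TSA libraries lay above the highest Mock library. AT5G65360 stayed the largest contributor in both groups, at 42.8 ± 2.30% and 41.4 ± 2.40%. Within H3.3, AT5G10980 made up 13.1 ± 4.19% in Mock and 19.7 ± 1.76% in TSA, with ranges that overlapped.

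**Figure D3:**
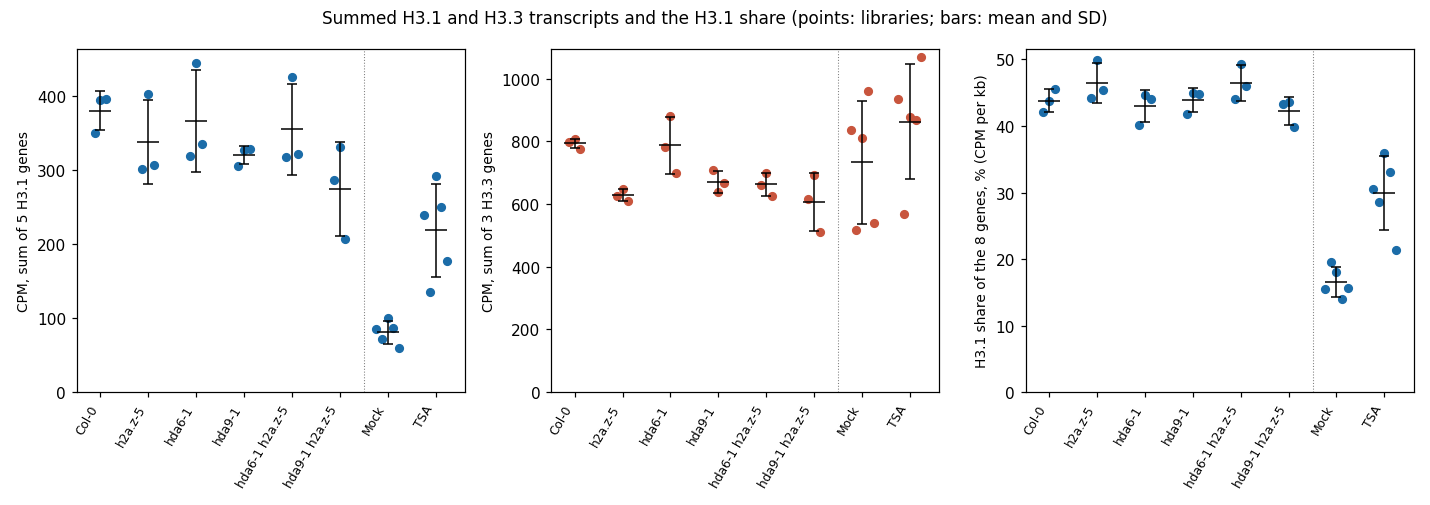
Summed CPM of the 5 H3.1 genes, summed CPM of the 3 H3.3 genes, and the H3.1 share of the 8 genes in percent of CPM per kb (vertical axes, from 0) in the 8 groups; points are libraries and bars the mean and SD. The H3.1 sum averages 80.7 CPM in Mock, 218.5 in TSA and 380 in Col-0, while the H3.3 sum averages 733.2, 863.3 and 793.6.

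Other parts of the H3 system were read beside the members from lists chosen for their role. The count that rose in each list is to be read against the 18.5% of all genes tested that were higher. Among 6 further H3 genes, 4 were tested and 2 rose. AT1G13370 was at 0.191 ± 0.0900 CPM in Mock and 3.89 ± 1.49 in TSA (log2 fold change 4.34 ± 0.45, edgeR adjusted p 0.000108), and AT1G75600 was at 0.129 ± 0.107 and 5.69 ± 3.60 (5.37 ± 0.61, 0.000174). Both loci are annotated as histone superfamily proteins with a coding length of 411 bases. Their encoded proteins differ from H3.1 at 9 residues each, and from H3.3 at 7 and 5 residues. HTR12, the centromeric H3, stood at 0.72 ± 0.38 (edgeR adjusted p 0.166, and 0.0468 with the replicate block). AT1G13370 and AT1G75600 were barely detected in Mock and passed the filter on low counts only through the TSA libraries. Their place in the test thus depended on the rise itself, and the size of their change is poorly fixed. Even in TSA, both stayed far below the H3.1 sum.

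H4 is the partner of H3 in the nucleosome, and all 8 H4 genes of the list encode the same protein as HIS4. Only AT5G59690 passed, at 56.1 ± 9.56 CPM in Mock and 85.9 ± 20.6 in TSA (log2 fold change 0.61 ± 0.21, edgeR adjusted p 0.0424), and none was lower. The median over the 8 H4 genes was 0.56. With the replicate block, 4 H4 genes were higher and 1 lower, where 4586 of the 20201 genes tested were higher and 4470 lower.

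The H3.1 readers and writers all rose. TSK, which reads newly made H3.1, stood at 1.34 ± 0.30 on the log2 scale (edgeR adjusted p 0.00608). ATXR5 and ATXR6, which methylate lysine of H3.1, had 0.61 ± 0.20 (0.0358) and 1.496 ± 0.45 (0.0241). The list medians were 0.33 over chaperones and 1.34 over readers and writers. Of 11 H3 chaperone genes, 2 rose and 0 fell, a share near the 18.5% of all genes tested that were higher. The 2 were AT1G77310, a UBN homologue in the annotation's synonyms and a partner of HIRA, at 1.68 ± 0.23 (0.000443), and MSI1, a CAF-1 subunit, at 0.51 ± 0.17 (0.0358). The other CAF-1 subunits FAS1 and FAS2 had 0.69 ± 0.34 (0.134) and 0.89 ± 0.36 (0.0733), and HIRA had -0.26 ± 0.27 (0.468).

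Lists of genes active in dividing cells held further calls, where 18.5% of all genes tested were higher (22.7% with the replicate block). Of 16 DNA replication genes, 7 rose and 0 fell (8 and 0 with the replicate block), with a median log2 fold change of 0.76. CDC6, a replication licensing factor, had 1.70 ± 0.25 (edgeR adjusted p 0.000608). ORC1B, an origin recognition subunit, had 1.502 ± 0.25 (0.00107), and TSO2, a ribonucleotide reductase subunit, had 2.45 ± 0.49 (0.00305). MCM4, a subunit of the replicative helicase, had 1.498 ± 0.39 (0.0121). Of 10 mitosis genes, 6 rose and 0 fell, with a median of 0.95. CYCB1;1, the mitotic cyclin, had 2.28 ± 0.29 (0.000275), and the kinase gene CDKB2;1 had 1.56 ± 0.30 (0.00279). CDC20.1, an activator of the anaphase-promoting complex, had 1.63 ± 0.43 (0.0131), and the kinase gene CDKB1;1 had 0.98 ± 0.30 (0.0262).

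The summed level of the DNA replication list was 68.6 to 213.2 CPM in Mock and 188.2 to 610.4 CPM in TSA, and that of the mitosis list was 34.5 to 70.4 CPM and 70.35 to 165.6 CPM. Much of the first sum was TSO2, with a mean of 52.0 CPM in Mock and 285.1 CPM in TSA. The other 15 genes, a sum chosen after seeing the data, came to 53.4 to 154.7 CPM in Mock and 115.4 to 271.5 CPM in TSA, with ranges that overlapped. Of 4 endoreduplication genes, SIM, an inhibitor of mitotic kinases, rose at 1.09 ± 0.24 (edgeR adjusted p 0.00590), and CCS52A2 had -0.66 ± 0.26 (0.0674), and passed as lower with the block (0.0300). No leaf marker passed, and the leaf sum was 4543 to 22180 CPM in Mock and 11150 to 45230 CPM in TSA. Of 4 root markers SHV2, also known as COBL9, rose at 1.47 ± 0.49 (edgeR adjusted p 0.0373), and did not pass with the block (0.0567). Of these markers 3 had a log2 fold change above 0. The root sum had the lower mean in TSA, at 1023 CPM (523 to 1296) against 1265 CPM (769 to 2008) in Mock, with ranges that overlapped. With the block the leaf marker RBCS1A passed (0.0329). Of 2 flower genes tested AG rose at 1.73 ± 0.40 (0.00661) and PI fell by 1.71 ± 0.49 (0.0186), from levels under 1 CPM in Mock. The shoot meristem marker STM had -0.88 ± 0.38 (0.0971). In lists this short, 1 call is to be read against the 18.5% of all genes tested that were higher. Whether these cell type levels had a part in the rise of the H3 genes was not tested.

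**Figure D4:**
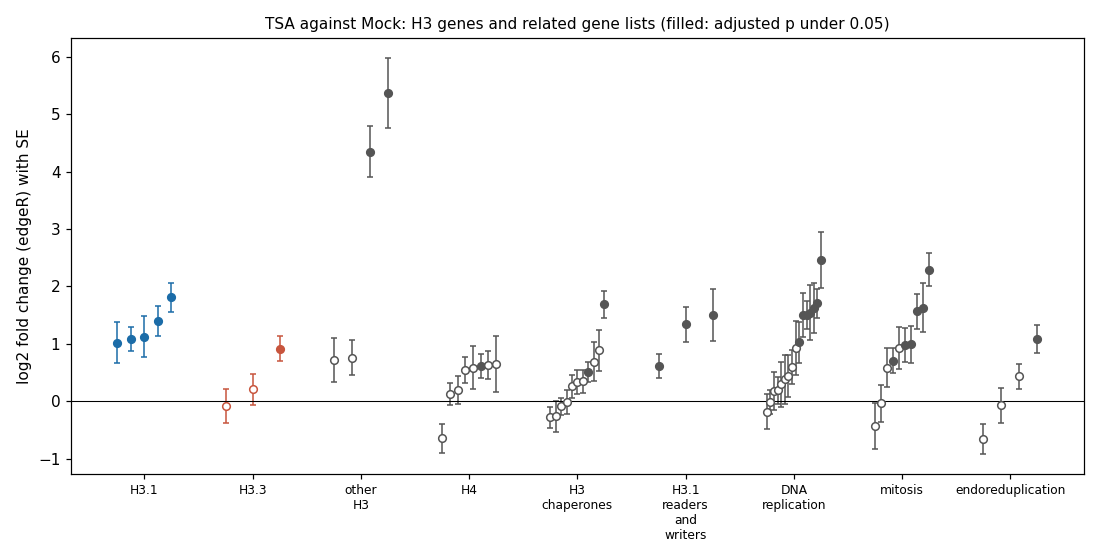
Log2 fold change of TSA against Mock with SE (vertical axis) for single genes, grouped by list (horizontal axis); filled points have an edgeR adjusted p under 0.05. The H3.1 genes lie between 1.02 and 1.81. The highest points are AT1G13370 and AT1G75600 at 4.34 and 5.37, both barely detected in Mock.

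In the mutants on soil, no member rose and 1 fell in the main fit, which had no replicate block. More members were lower with the block, as given below. By edgeR's quasi-likelihood test none of the 8 passed in h2a.z-5, in the libraries labelled hda6-1, in hda9-1 or in hda6-1 h2a.z-5, against 0.91%, 3.05%, 1.75% and 6.01% of the 20771 genes tested. At an unadjusted p under 0.05 the counts were 3, 0, 1 and 2, against 9.7%, 9.73%, 17.1% and 17.4% of all genes. DESeq2 called 1, 0, 0 and 1 of the members and 388, 733, 1205 and 1740 of all genes. In hda9-1 h2a.z-5, AT5G10390 fell, where 5.89% of genes were called and 3.21% were lower. In that mutant 6 members had an unadjusted p under 0.05, against 22.4% of all genes, and DESeq2 called 1 member and 2070 genes. Members whose libraries all lay below Col-0 numbered 3 in h2a.z-5, 1 in hda6-1, 3 in hda9-1, 2 in hda6-1 h2a.z-5 and 4 in hda9-1 h2a.z-5, against 8.08%, 6.69%, 12.4%, 10.1% and 12.2% of genes. These comparisons share the Col-0 libraries.

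AT5G10390 had 39.6, 41.9 and 55.3 CPM in wild type, whereas the libraries of hda9-1 h2a.z-5 had 29.2, 31.9 and 21.6 CPM. The groups did not overlap (log2 fold change -0.73 ± 0.16, edgeR adjusted p 0.0136). The call was lost without Col-0 replicate 3 or without hda9-1 h2a.z-5 replicate 3, where the adjusted p was up to 0.0761, and at 0.188 when only the libraries of these groups were fitted. The authors' deposited table gave an adjusted p of 0.0599, which is not past 0.05. AT5G10390 was also below every Col-0 library in h2a.z-5 (32.1, 34.3 and 36.6 CPM; -0.41 ± 0.16, adjusted p 0.366) and in hda6-1 h2a.z-5 (33.01, 37.3 and 34.3 CPM; -0.39 ± 0.16, 0.192), without passing. In hda9-1 it had 38.2, 34.1 and 39.0 CPM, again below Col-0 (-0.30 ± 0.16, 0.353).

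All 8 members had log2 fold changes below 0 in h2a.z-5, in hda9-1 and in hda9-1 h2a.z-5, with medians of -0.15, -0.25 and -0.39. Over all genes tested, 49.0%, 50.2% and 46.9% were below 0 in these contrasts. With the replicate number as a block, which the check of pairing allows, 2, 0 and 5 members were lower, against 2.06%, 7.15% and 12.0% of all genes. In the libraries labelled hda6-1 and in hda6-1 h2a.z-5, 6 and 7 members were below 0, and 0 and 2 were lower with the block, against 0.722% and 5.46%. The 5 in hda9-1 h2a.z-5 were AT1G09200 (-0.65, edgeR adjusted p 0.00646), AT5G10390 (-0.72, 0.00303), AT5G65360 (-0.38, 0.0348), AT4G40040 (-0.42, 0.0261) and AT5G10980 (-0.43, 0.00535). The H3.1 sum averaged 380 ± 26.1 CPM over Col-0 and 274.7 ± 63.2 CPM over hda9-1 h2a.z-5, with ranges that did not overlap. The hda9-1 libraries, at 305.6 to 328.5 CPM, also lay below the Col-0 range of 349.9 to 395.8 CPM. The ranges of h2a.z-5, hda6-1 and hda6-1 h2a.z-5 overlapped that of Col-0. No H4 gene had a log2 fold change above 0 in any mutant except hda6-1, where 1 of the 8 did. With the block, 4 H4 genes were lower in hda9-1 and none in hda6-1, in h2a.z-5 or in their combination. In hda9-1 h2a.z-5, all 8 were lower with the block, and AT5G59970 fell in the main fit (-0.86 ± 0.23, edgeR adjusted p 0.0400). None of the 16 DNA replication genes passed there, with a median of 0.38, and 2 were higher and 1 lower with the block.

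The H3.3 gene AT4G40040 had its lowest group means in the groups that carried h2a.z-5, without passing the test. Its Col-0 libraries had 306.9, 315.3 and 359.1 CPM. The h2a.z-5 libraries had 226.6, 233.9 and 227.1 CPM, and those of hda6-1 h2a.z-5 had 253.2, 252.2 and 214.1 CPM. Every library of these mutants was below every Col-0 library. The log2 fold changes were -0.51 ± 0.14 (edgeR adjusted p 0.133) and -0.45 ± 0.14 (0.0817), so neither passed. With the replicate block the adjusted p-values were 0.0341 and 0.0246, by DESeq2 they were 0.0288 and 0.0340, and the authors' deposited table gave 0.0104 for h2a.z-5 and, not past 0.05, 0.0869 for hda6-1 h2a.z-5.

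In hda9-1 h2a.z-5, AT4G40040 had 268.3, 277.2 and 194 CPM, again below Col-0 (-0.41 ± 0.14, edgeR adjusted p 0.104). In the libraries labelled hda6-1 AT4G40040 had 303.9, 305.2 and 294 CPM, also below every Col-0 library. In hda9-1 it had 339.9, 266 and 296.2 CPM, a range that overlapped those of Col-0 and of hda9-1 h2a.z-5. AT5G10980, the other H3.3 gene that passed with the block, had log2 fold changes of -0.42 in h2a.z-5 (blocked adjusted p 0.0252), -0.37 in hda6-1 h2a.z-5 (0.0178) and -0.43 in hda9-1 h2a.z-5. For AT4G40030 the Col-0 libraries had 332.7, 285.1 and 239.8 CPM, and those of hda9-1 220.1, 202.7 and 229.5 CPM, a log2 fold change of -0.39 ± 0.15 (adjusted p 0.170).

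The H3.3 sum ranged from 776.9 to 807.4 CPM over the Col-0 libraries, and from 611.2 to 648.9 CPM over those of h2a.z-5, without overlap. The libraries of hda9-1 (637.4 to 707.5 CPM), hda6-1 h2a.z-5 (625.8 to 700.7 CPM) and hda9-1 h2a.z-5 (510.9 to 693.1 CPM) also lay below every Col-0 library. Only those labelled hda6-1 (699.9 to 881.3 CPM) overlapped Col-0. Ordered by mean, the H3.3 sums were 793.6 in Col-0, 788.1 in hda6-1, 671 in hda9-1, 662.7 in hda6-1 h2a.z-5, 628.3 in h2a.z-5 and 606.7 in hda9-1 h2a.z-5, and neighbours in this order overlapped. The H3.1 sums were 380 in Col-0, 366.3 in hda6-1, 354.8 in hda6-1 h2a.z-5, 337.2 in h2a.z-5, 320.2 in hda9-1 and 274.7 in hda9-1 h2a.z-5, and neighbours overlapped here too. For the remaining H3.1 genes the 18 libraries spanned 55.8 to 171 CPM (AT1G09200), 3.05 to 8.71 CPM (AT3G27360), 39.4 to 63.5 CPM (AT5G10400) and 84.0 to 167.2 CPM (AT5G65360).

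Adding a deacetylase mutation to h2a.z-5, or h2a.z-5 to a deacetylase mutation, changed no member past the test in any of 4 contrasts, nor did the interaction terms of either pair. The background was 2.02%, 2.26%, 0.64% and 0.944% for the 4 contrasts and 0.053% and 0.0337% for the interactions. The largest interaction was 0.30 on the log2 scale, and the lowest adjusted p over the 4 contrasts was 0.286. At an unadjusted p under 0.05 there was 1 member for hda6-1 h2a.z-5 against hda6-1 and 1 for hda9-1 h2a.z-5 against hda9-1, where 9.88% and 11.2% of all genes had one, so these counts are near the background. DESeq2 and the blocked fit called none. Scaling to library totals moved the split of all genes called from 168 higher and 301 lower to 245 and 264 for hda6-1 h2a.z-5 against hda6-1, with the median of all genes at 0.14, from 132 and 64 to 159 and 45 for hda9-1 h2a.z-5 against hda9-1, and from 6 and 1 to 6 and 2 for the hda9-1 interaction, and no member was called there either. Outside the members, AT1G13370 was higher in hda6-1 h2a.z-5 than in Col-0 (2.92 and 1.13 CPM; 1.37 ± 0.28, edgeR adjusted p 0.00553) and lower in hda9-1 h2a.z-5 than in h2a.z-5 (0.562 and 1.47 CPM; -1.39 ± 0.29, 0.0416).

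The members varied with the replicate number across genotypes. For AT1G09200, AT3G27360 and AT5G10980, replicate 2 was the highest of the 3 libraries in 6 of 6 genotypes. For AT1G09200 it was 139.8 CPM in Col-0, 153.8 in h2a.z-5, 171 in the libraries labelled hda6-1, 116.8 in hda9-1, 160.2 in hda6-1 h2a.z-5 and 116.5 in hda9-1 h2a.z-5. For AT4G40030, by contrast, each number was highest in 2 genotypes. The labels do not say what a replicate number marks.

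**Figure D5:**
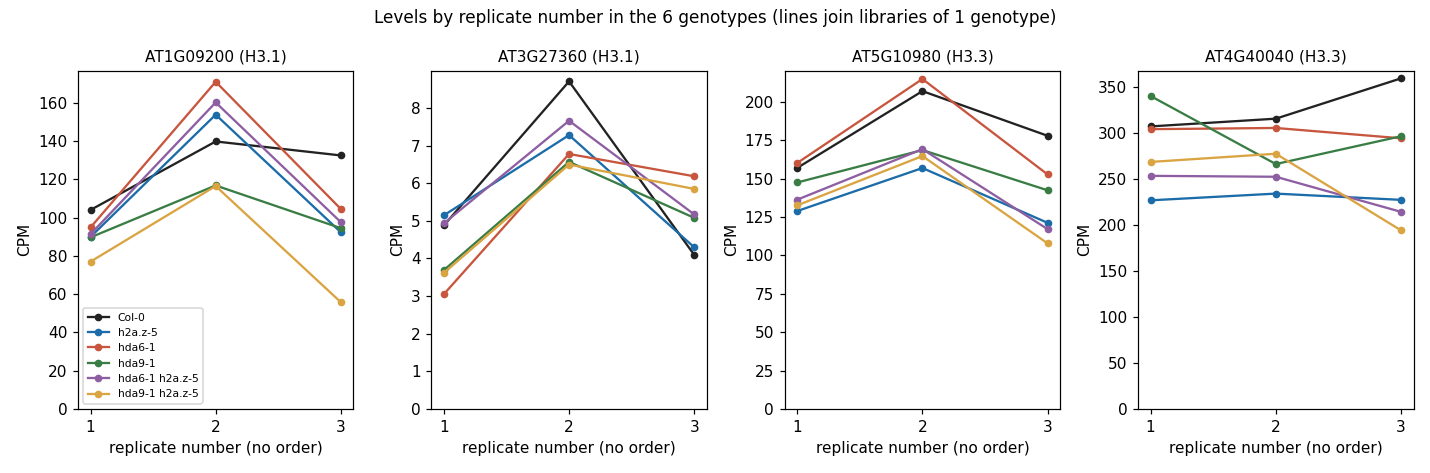
CPM (vertical axis, from 0) by replicate number (horizontal axis, which has no order) for 4 members; lines join the 3 libraries of a genotype. Replicate 2 is the highest in all 6 genotypes for AT1G09200, AT3G27360 and AT5G10980, and in 3 of 6 for AT4G40040.

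Profiles across libraries were compared between members. Over the 10 Mock and TSA libraries, Pearson's r of log2(CPM + 0.5) had a median of 0.849 over the 10 H3.1 pairs (0.314 to 0.977), 0.476 over the 15 pairs of H3.1 with H3.3, and 0.474 over the 3 H3.3 pairs. Over the 18 genotype libraries the medians were 0.637, 0.471 and 0.389. These libraries share their treatment, genotype and replicate numbers, so the values describe the libraries only.

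Of 12213 genes compared, those most like the mean H3.1 profile were SUMO5, a ubiquitin-like modifier (r = 0.931 over genotype libraries and 0.936 over Mock and TSA libraries), and HTA6, an H2A gene (0.923 and 0.973). AT5G23535, EMB2024 and DAD2 followed, with the lower r of the pair at 0.918, 0.914 and 0.908. For H3.3 the leading gene was AT3G59840 (0.897 and 0.881). AT5G11280, the H4 gene AT5G59690, AT5G58005 and AT2G19750 followed, with the lower r at 0.793, 0.787, 0.767 and 0.765.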

How the data were processed

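The authors deposited raw read counts per gene for 18 genotype and 10 Mock and TSA libraries, and their own tables of log2 fold change and adjusted p-value per the file headers. How the RNA reads were aligned and counted, and whether by strand, is not stated in any source used here. The submitters' processing notes name fastp 0.23.4, Bowtie2, SAMtools 1.17, Picard 3.0.0, MACS2 2.2.6 and deepTools 3.5.2, which belong to ChIP-seq, and TAIR10. The labels, which name h2a.z-5, were followed where the design text has nrp1-1 nrp2-2.

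Counts were tested with edgeR 4.0.16 (quasi-likelihood F test, two-sided, TMM, filterByExpr with minimum count 10 and minimum total 15) in R 4.3.3. One model held the 18 genotype libraries, leaving 12 residual degrees of freedom, and another held the 10 Mock and TSA libraries, leaving 8. Calls required an adjusted p under 0.05 (Benjamini-Hochberg) over all genes tested, 20771 and 20201, in each of 12 contrasts. Standard errors are the log2 fold change over the square root of F. The method was tested on simulated counts with the same spread for every gene, where 62% of genes with a log2 change of 1 were recovered in the h2a.z-5 contrast. Alternatives were RLE scaling, library totals, no filter, DESeq2 1.42.0, a replicate block, fewer groups and each library left out.

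Libraries of the same replicate number correlated at 0.142 to 0.647 over 45 genotype pairs and 0.101 to 0.497 over 5 Mock and TSA pairs after removal of group means. The medians were 0.403 and 0.321, against -0.24 and 0.0326 for pairs of other numbers, so libraries of the same number were related. The main fits did not use this pairing, and the fits with the replicate block did. Per the design text, replicates were biological and independent. Precision was limited by the number of libraries: counts per library ran from 37 for AT3G27360 to 21474 for AT4G40040. Sequences and gene spans came from RefSeq's TAIR10.1. The members, lists and named genes (8 members, up to 4 called genes a list in TSA and 2 in other contrasts, and the 5 genes of most similar profile over a mean of 5 CPM) were chosen with earlier results of these data known. The named list genes that did not pass were chosen after their values were seen.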

Additional observations from a re-analysis of the deposited data

How the results depend on the processing

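The counts of members called in TSA were 6 in the main test, 3 with library totals only and 5 without the filter on low counts; leaving out each library gave 4 to 6. In h2a.z-5 the count was 0, 1 by DESeq2 and 2 with the replicate block. In hda6-1 h2a.z-5 it was 0, 1 by DESeq2 and 2 with the block. In hda9-1 h2a.z-5 it was 1, 5 with the block, 0 with only the groups compared, and 0 to 1 with each library left out. The block moved the count of all genes called from 189 to 785, 634 to 1005, 363 to 3392, 1248 to 2988 and 1224 to 4922 in the 5 mutants, taken as h2a.z-5, hda6-1, hda9-1 and then their combinations with hda6-1 first; it changed no other member's call.

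Signs turned with library totals only for AT4G40040 in TSA (-0.0769) and for AT5G65360 in hda6-1 (-0.0638) and AT4G40030 in hda6-1 h2a.z-5 (0.0179), and without the filter for AT3G27360 in hda6-1 h2a.z-5 (-0.0013). None of these was called. Leaving out single libraries turned the sign of AT4G40030 in TSA (-0.23 to 0.0695). In h2a.z-5 it turned AT3G27360 (-0.31 to 0.32) and AT4G40030 (-0.23 to 0.0074). In hda6-1 it turned AT1G09200 (-0.32 to 0.15), AT3G27360 (-0.34 to 0.26), AT5G65360 (-0.0633 to 0.10) and AT5G10980 (-0.19 to 0.0858). In hda9-1 (-0.44 to 0.17) and hda9-1 h2a.z-5 (-0.35 to 0.25) it turned AT3G27360. In hda6-1 h2a.z-5 it turned AT1G09200 (-0.41 to 0.0372), AT3G27360 (-0.22 to 0.40), AT5G65360 (-0.14 to 0.0218) and AT4G40030 (-0.14 to 0.10). Of all alternative values of single members, 550 kept direction and side of the threshold, 18 lost the threshold, 10 passed it and 30 turned. The cause was not tested. The summed levels of each group moved by less than 1 SD under each scaling tried, but the comparison of TSA with Mock moved more. With library totals only, the H3.3 sum was lower in TSA (790.6 CPM) than in Mock (806.9 CPM). The H3.1 sum stayed higher, at 196.6 and 88.85 CPM.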
